A study of Mus musculus with 6 samples.

Results

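Toll-like receptors are transmembrane proteins that recognise molecules of microbes and of damaged cells. The members described here are the 10 mouse genes Tlr1, Tlr2, Tlr3, Tlr4, Tlr5, Tlr6, Tlr7, Tlr8, Tlr9 and Tlr13. They were found by gene symbol among 40213 gene rows, without the use of any measured value. All 10 had a row, and 9 passed the filter on low counts and were tested. RNA was sequenced from 6 libraries of bone marrow-derived macrophages of C57BL/6 mice. In every group, precursors flushed from tibia and femur had been grown in M-CSF, the macrophage growth factor, at 25 ng/ml with 10% fetal bovine serum for 4 days. The 3 MNP samples then received polystyrene micro- and nanoplastics (MNP, 50 µg, particle size and volume not stated) for 24 h, and the 3 control samples received none. The labels do not say whether the replicates were separate cultures or mice, so each p-value speaks only of the spread among these 6 libraries, which may be technical.

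The receptors fall into a surface set and an endosomal set. At the cell surface, TLR2 pairs with TLR1 or TLR6 to bind bacterial lipopeptides, TLR4 binds lipopolysaccharide with the help of CD14 and MD-2, and TLR5 binds flagellin. In endosomes, TLR3 binds double-stranded RNA, TLR7 and TLR8 bind single-stranded RNA and its breakdown products, TLR9 binds DNA with unmethylated CpG motifs, and TLR13 binds a sequence of bacterial ribosomal RNA. All except TLR3 signal through the adaptor MyD88, while TLR3 uses TRIF and TLR4 uses both, and the pathways end in NF-kB and interferon regulatory factors.

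After MNP treatment, 5 of the 9 tested receptors fell, 1 rose and 3 did not pass the test. Tlr2 fell most, followed by Tlr1, Tlr3, Tlr7 and Tlr8, and Tlr13 rose. Tlr4, Tlr6 and Tlr9 did not pass. The surface and endosomal sets each held members that fell and members that did not pass, and the 1 that rose was endosomal. The sets were not tested against each other. Of 12893 genes tested, 17.5% were called in either direction, 9.11% higher and 8.35% lower in MNP samples, and without MNP sample 2 the 2250 calls became 1471. With library totals alone, 28.1% of all calls were in the higher direction, against 52.2% with the scaling used here. The calls of the receptors were the same 5 lower and 1 higher under that scaling.

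Libraries held 20262859 to 23042146 counts. More genes had a count in each control (20222 to 24062) than in any MNP sample (18240 to 18672). Levels are given as CPM, counts relative to the library total, scaled by the trimmed mean of M-values (TMM), and 1 count was worth 0.0424 to 0.0483 scaled CPM. Of 9 macrophage markers, 5 fell, and their summed level was 19432 to 20182 scaled CPM in controls and 17079 to 18136 in MNP samples. Of 7 tested neutrophil markers, 4 fell (summed level of all 8 markers 170 to 257 in controls, 126 to 143 in MNP samples), with Ly6g at 0 to 2 counts. Of 3 tested markers of plasmacytoid dendritic cells, 2 fell and 1 rose (summed level of all 8, 8.57 to 10.6 and 10.7 to 11.5), with Klk1 and Ly6d at 0. Runx2, a gene of wider use, held most of that sum and rose from 6.24 to 10.3 scaled CPM, while Siglech fell from 1.80 to 0.359 and Ccr9 from 0.912 to 0.153. Of 5 tested markers of conventional dendritic cells, 1 fell (summed level of all 8, 5.22 to 6.96 and 2.34 to 4.25). No tested marker of B cells, T or NK cells, or mast cells and basophils was called (1 tested for each), no fibroblast marker was tested, and the summed level of each of these lists reached at most 3.30 scaled CPM (Vpreb3, Cd3e and Ncr1 at 0). Since Toll-like receptors are also made by neutrophils and dendritic cells, these values stand beside every receptor result, and their part in it was not tested. In these bulk samples, fewer cells of a type and less RNA per cell cannot be told apart.

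Tlr2, the shared partner of the lipopeptide receptors, stood at 83.7, 95.5 and 112 scaled CPM in controls 1 to 3 and at 40.9, 48.1 and 43.3 in MNP samples 1 to 3. The lowest control lay far above the highest MNP sample. The gene fell 2.20-fold (log2 -1.14 ± 0.10 SE, edgeR adjusted p = 2.91e-06). Tlr1, which joins TLR2 to bind triacylated lipopeptides, stood at 86.0, 76.5 and 82.7 scaled CPM in controls and at 53.5, 48.7 and 54.5 in MNP samples. Its groups did not overlap either, and the fall was 1.56-fold (log2 -0.65 ± 0.07 SE, edgeR adjusted p = 2.88e-05). Tlr6, which joins TLR2 to bind diacylated lipopeptides, stood at 29.2, 32.0 and 30.5 in controls and at 31.1, 28.5 and 30.7 in MNP samples. These values overlapped, and the difference (log2 -0.02, 95% interval -0.20 to 0.15, edgeR adjusted p = 0.872) was smaller than its own error. The direction for Tlr6 turned positive in 3 of the alternatives, among them without control 2 (0.012) and without MNP sample 2 (0.018).

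**Figure D1:**
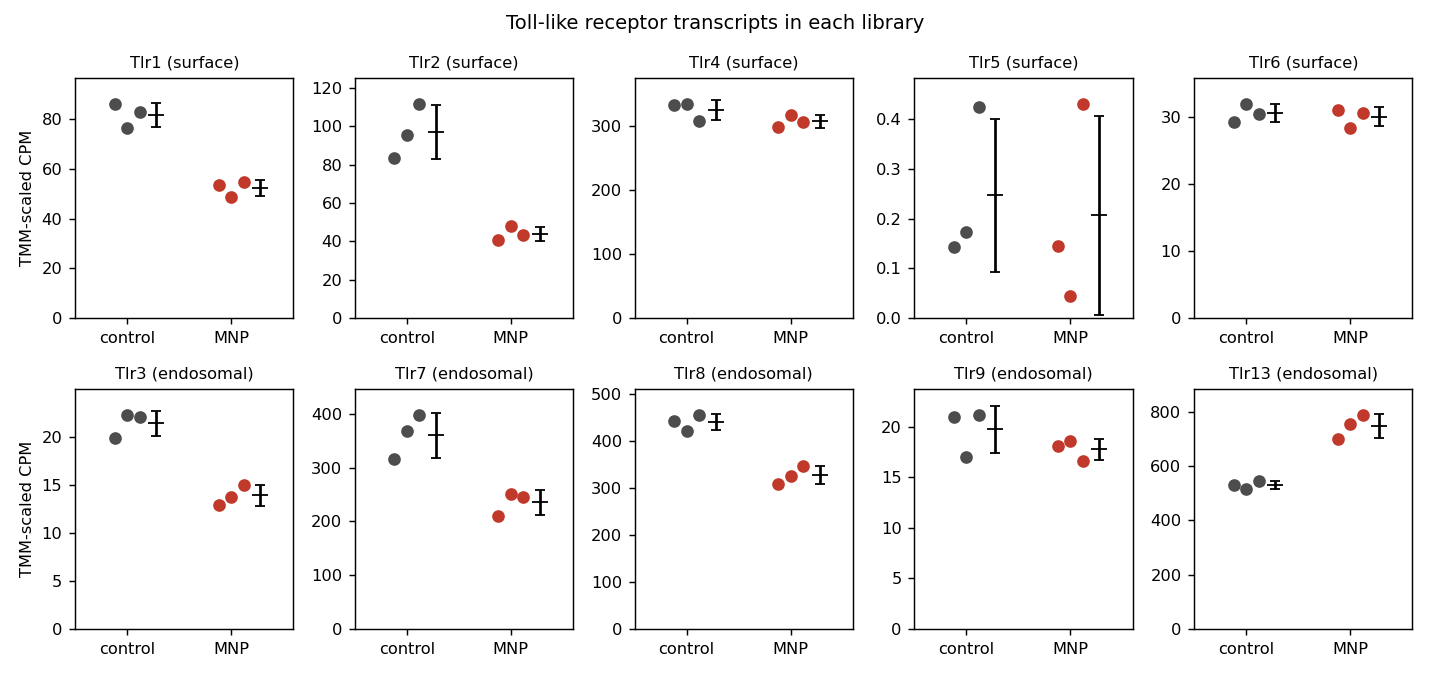
TMM-scaled CPM of the 10 Toll-like receptors in each control (grey) and MNP (red) library, 1 point per library, with the mean and SD of 3 libraries beside the points; each panel starts at 0 and has its own scale. The groups do not overlap for Tlr1, Tlr2, Tlr3, Tlr7, Tlr8 and Tlr13, and Tlr13 is the one with the MNP samples on top.

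The counts of Tlr1 and Tlr6 carry a limit of their own. Both genes lie on chromosome 5, and in the GENCODE M21 transcripts 15.3% of all 50-base windows of Tlr1 are found unchanged in Tlr6. With windows of 100 bases the share was 8.85%, and no other pair among the 12 mouse receptors shared a window of either length (1 of 66 pairs). How the deposited counts assign reads from shared sequence is not given in the sources used here, so the separate counts of this pair are uncertain to that extent. The longest shared run, shown because a read that lies wholly within it matches both genes equally well, has 229 bases. It spans coding bases 1468 to 1696 of Tlr1 and 1507 to 1735 of Tlr6, counted from the A of the start codon. It is printed in lower case, all of it being identical in both genes, 5′ to 3′ on the coding strand.
Tlr1 and Tlr6: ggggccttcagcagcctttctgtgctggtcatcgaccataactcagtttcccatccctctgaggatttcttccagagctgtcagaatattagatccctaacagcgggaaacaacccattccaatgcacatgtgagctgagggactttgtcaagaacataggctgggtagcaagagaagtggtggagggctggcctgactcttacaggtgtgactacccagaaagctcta

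Tlr4, the lipopolysaccharide receptor, stood at 334, 335 and 308 scaled CPM in controls and at 298, 318 and 307 in MNP samples. MNP sample 2 lay within the range of the controls and the other MNP samples just below it. It did not pass (log2 fold change -0.08, 95% interval -0.20 to 0.04, edgeR adjusted p = 0.367). On the linear scale this interval runs from 0.868 to 1.03 times the control level, so a fall of the size seen for Tlr2 lies outside it. Tlr5, the flagellin receptor, was near the counting limit, with 3, 4 and 10 counts in controls and 3, 1 and 9 in MNP samples, and was not tested. A limit of 3 counts corresponds to 0.127 to 0.145 scaled CPM in these libraries.

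Among the endosomal receptors, Tlr13 stood at 532, 514 and 543 scaled CPM in controls and at 699, 754 and 789 in MNP samples. Every MNP sample lay above every control. Tlr13 rose 1.41-fold (log2 0.50 ± 0.06 SE, edgeR adjusted p = 5.38e-05). Tlr7 stood at 316, 367 and 398 in controls and at 209, 251 and 246 in MNP samples, a 1.53-fold fall without overlap (log2 -0.61 ± 0.09 SE, edgeR adjusted p = 0.000250). Tlr8, its neighbour on the X chromosome, stood at 443, 423 and 456 in controls and at 310, 327 and 348 in MNP samples. That was the smallest of the 5 falls, 1.34-fold (log2 -0.43 ± 0.06 SE, edgeR adjusted p = 0.000228), and again the groups did not overlap.

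Tlr3, the receptor for double-stranded RNA, stood at 19.9, 22.3 and 22.01 scaled CPM in controls and at 12.9, 13.8 and 15.01 in MNP samples. It fell 1.54-fold (log2 -0.62 ± 0.10 SE, edgeR adjusted p = 0.000728), and no MNP sample reached the lowest control. In GENCODE M21, Tlr3 overlaps the gene Gm45542, which is not among the rows used here. The strand setting of the counts is not given in the sources used here. The other 9 members overlap no annotated gene. Tlr9, the receptor for unmethylated DNA, stood at 21.0, 17.0 and 21.2 in controls and at 18.1, 18.6 and 16.6 in MNP samples. Control 2 lay inside the MNP range, and the gene did not pass (log2 -0.15, 95% interval -0.39 to 0.08, edgeR adjusted p = 0.384).

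**Figure D2:**
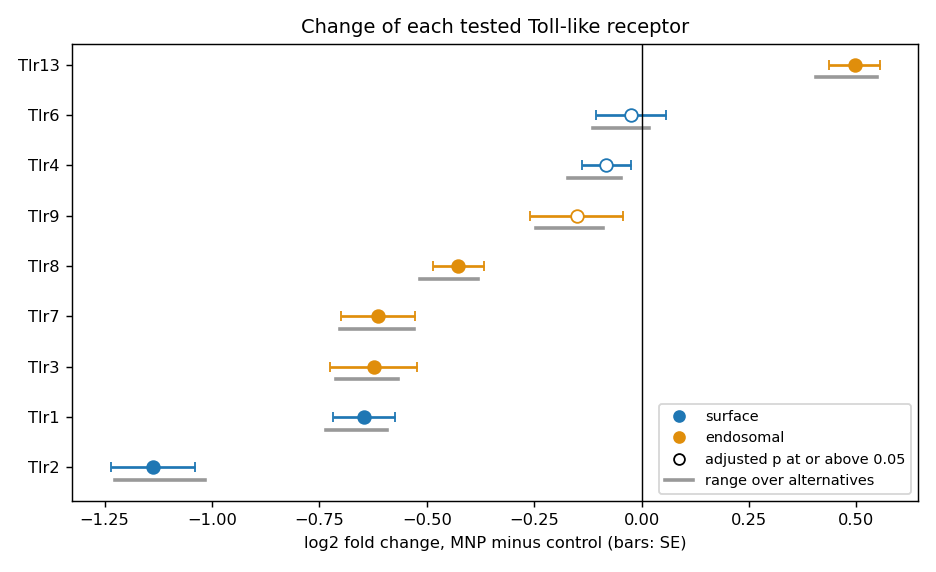
Log2 fold change of MNP minus control for the 9 tested receptors, with SE bars, filled for adjusted p under 0.05, blue for surface and orange for endosomal receptors; grey lines give the range over 14 alternative analyses. Tlr2 lies lowest at -1.14, Tlr13 is alone above 0 among the called genes at 0.50, and the grey line of Tlr6 crosses 0.

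As sets, the surface and endosomal receptors gave like medians. Of 4 tested surface receptors, 2 fell and 0 rose, with a median log2 fold change of -0.36. Of 5 tested endosomal receptors, 3 fell and 1 rose, with a median of -0.43. Over all 9 the median was -0.43, beside -0.01 over all tested genes. The groups did not overlap for 6 of the 9, 5 with MNP samples lower and 1 with them higher, against 34.6% of all tested genes (17.4% lower and 17.2% higher). Summed within each library, the surface receptors went from 535 ± 3.22 to 434 ± 9.50 scaled CPM (SD, n = 3). The endosomal sum, to which Tlr13 adds most, was 1372 ± 59.8 in controls and 1342 ± 84.9 in MNP samples. The endosomal values thus overlapped between the groups, while the surface values of controls (533, 539 and 533) all lay above those of MNP samples (424, 443 and 436).

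Of 6 ratios between receptors of like ligands, 4 did not overlap between the groups, though none passed an exact permutation test. For Tlr13 to Tlr8 and Tlr13 to Tlr7, the lack of overlap follows from the single values and is no further result. Tlr13 rose and Tlr7 and Tlr8 fell, each without overlap, so these ratios had to separate. Tlr13 took 28.5%, 27.3% and 27.5% of all counts of the 10 members in controls 1 to 3 and 41.8%, 41.7% and 42.6% in MNP samples 1 to 3. The ratio of Tlr13 to Tlr8 was 1.20 ± 0.0133 in controls and 2.28 ± 0.0271 in MNP samples (SD, n = 3, exact permutation p = 0.1). For Tlr13 to Tlr7 it was 1.48 ± 0.175 and 3.18 ± 0.171 (exact permutation p = 0.1). Tlr2 to Tlr6 went from 3.17 ± 0.424 to 1.47 ± 0.194, and Tlr1 to Tlr6 from 2.68 ± 0.274 to 1.74 ± 0.0354 (exact permutation p = 0.1 for each). Tlr2 to Tlr1 (1.19 ± 0.194 and 0.848 ± 0.121) and Tlr7 to Tlr8 (0.818 ± 0.0914 and 0.718 ± 0.0476) overlapped between groups (exact permutation p = 0.2 for each). These two-sided tests of 3 against 3 samples cannot go below 0.1, and the 6 ratios, adjusted together by the Benjamini-Hochberg method, gave 0.15 for the first 4 and 0.2 for the other two.

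To compare receptors with one another, scaled CPM was divided by the length of the longest coding transcript in GENCODE M21. In controls the order was Tlr13 (130 ± 3.57 scaled CPM per kilobase, SD, n = 3), Tlr8 (129 ± 4.93), Tlr7 (92.5 ± 10.7), Tlr4 (79.9 ± 3.71), Tlr2 (32.2 ± 4.63), Tlr1 (27.0 ± 1.59), Tlr6 (8.32 ± 0.370), Tlr9 (5.67 ± 0.677), Tlr3 (4.85 ± 0.296) and Tlr5 (0.0648 ± 0.0403). With transcript length, control values overlapped for Tlr13 and Tlr8, Tlr7 and Tlr4, Tlr2 and Tlr1, and Tlr9 and Tlr3. By that length, those neighbours do not differ beyond their spread. With coding length, the control values of Tlr13 (178 ± 4.88) and Tlr8 (142 ± 5.46) did not overlap, nor did those of Tlr9 and Tlr3. In MNP samples Tlr13 stood clear at 184 ± 11.2 scaled CPM per kilobase, followed by Tlr8 (95.6 ± 5.64), Tlr4 (75.5 ± 2.35) and Tlr7 (60.5 ± 5.86). No 2 neighbours overlapped there with transcript length, and Tlr4 had passed Tlr7, and Tlr1 (17.3 ± 1.03) had passed Tlr2 (14.6 ± 1.21). With coding length, the MNP values of Tlr1 (21.9 ± 1.30) and Tlr2 (18.7 ± 1.56) overlapped, as did those of Tlr9 and Tlr3. Divided by coding length, Tlr4 stood at 130 ± 6.04 in controls and 123 ± 3.83 in MNP samples, above Tlr7 in both groups, and Tlr8 at 142 ± 5.46 and 106 ± 6.25, so the places of these 3 depend on the length used. The same holds for Tlr9 and Tlr3 in controls, which changed places with coding length (6.37 ± 0.761 and 7.88 ± 0.480).

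**Figure D3:**
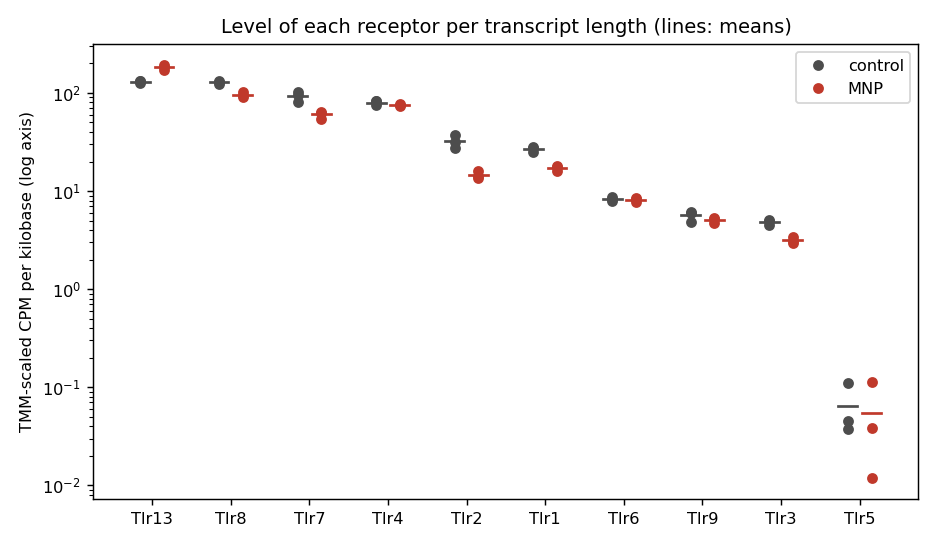
TMM-scaled CPM per kilobase of transcript on a log axis, for each control (grey) and MNP (red) library, with lines at the means, ordered by the control mean. Tlr13 and Tlr8 lie together near 130 in controls and apart at 184 and 95.6 in MNP samples, and Tlr5 lies more than an order of magnitude below every other receptor.

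RefSeq promoter sequences of GRCm38.p6 were given for 8 of the 10 members, in 10 entries. Tlr4 and Tlr7 had no entry and were not searched. The 250 bases before each start were searched on both strands for motifs of factors known in macrophages. The kappaB motif, which binds NF-kB, was found in Tlr2 and Tlr3 and in 7.25% of 32851 promoters. The interferon regulatory factor core AANNGAAA was found in Tlr1, Tlr2, Tlr3 and Tlr6 and in 21.3% of promoters. The PU.1 core GAGGAAG occurred in Tlr1, Tlr9 and Tlr13 (10.6% of promoters). Both the AP-1 motif TGANTCA (6.75%) and the antioxidant response element core TGACNNNGC (10.2%) occurred in Tlr9 alone among the members with an entry. The next lines show 30 bases around a match for Tlr2 and Tlr3, which fell, and for Tlr13, which rose, with the match in capitals, 5′ to 3′ on the strand of the gene.
Tlr2, kappaB: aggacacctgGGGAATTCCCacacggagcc
Tlr3, kappaB: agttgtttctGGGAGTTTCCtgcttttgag
Tlr3, IRF core: aagtgaatggcTTTCACTTtgtttagacac
Tlr13, PU.1 core: aaaaaaagagaaGAGGAAGgaaatgtctca

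The first of these lies at chr3:83841761-83841790 (minus strand), its match 172 to 163 bases before the start, and it overlaps a further kappaB match shifted by 1 base. Both Tlr3 windows are on the minus strand, at chr8:45410572-45410601 (211 to 202 bases before the start) and chr8:45410421-45410450 (59 to 52 bases before the start, with AANNGAAA read on the opposite strand). The Tlr13 window is at chrX:106143180-106143209 (plus strand), 83 to 77 bases before the start. A match is a description of letters, and the IRF core also stands in Tlr6, which did not pass the test. These coordinates are of GRCm38.p6, whereas the submitters' processing notes name GRCm39 for the counts.

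Of 9 tested coreceptors and ligand-handling proteins, 2 rose and 1 fell, where 17.5% of all tested genes were called, and the median log2 fold change was 0.03. Cd14 and Ly96, which encode CD14 and MD-2 of the lipopolysaccharide receptor complex, did not pass, with 158 ± 3.03 against 169 ± 11.05 and 11.02 ± 0.556 against 10.6 ± 1.10 scaled CPM (edgeR adjusted p = 0.278 and 0.809). Ly86, which encodes the MD-1 partner of the receptor homologue CD180, fell 1.53-fold from 77.7 ± 8.47 to 50.7 ± 5.85 scaled CPM (edgeR adjusted p = 0.000516). Cd180 itself was 395 ± 40.7 and 449 ± 22.01 (edgeR adjusted p = 0.102). The 2 that rose were Cd36, a scavenger receptor that aids TLR2 and TLR6 (log2 fold change 1.02 ± 0.07 SE), and the debris-binding protein Mfge8 (0.23 ± 0.06). Without MNP sample 1 or MNP sample 2, 1 gene rose, without control 3, 3 rose, and without control 1, 2 fell.

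Of 22 tested proteins that fold, move and cut the receptors or their ligands, 3 rose and 3 fell (median -0.03), again beside 17.5% called over all tested genes. Unc93b1, the chaperone that takes endosomal receptors out of the endoplasmic reticulum, stood at 440 ± 34.9 and 435 ± 16.3 scaled CPM (log2 -0.02, 95% interval -0.16 to 0.12, edgeR adjusted p = 0.896). Among lysosomal proteases, Ctsl (log2 -0.41 ± 0.06 SE) and Lgmn (-0.25 ± 0.06) fell and Ctsk rose (0.78 ± 0.14). The ribonuclease gene Rnaset2a fell (-0.40 ± 0.07), while its near copy Rnaset2b did not pass, and the separate counts of these 2 are uncertain. The deoxyribonuclease gene Dnase2a (0.21 ± 0.06) and Lrrc59 (0.23 ± 0.05) rose.

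Of 27 tested adaptors and kinases, 2 rose and 6 fell (median -0.03), beside 9.11% higher and 8.35% lower over all tested genes. Myd88, the common adaptor, stood at 39.2 ± 0.967 and 34.2 ± 2.07 scaled CPM and did not pass (edgeR adjusted p = 0.107), nor did Ticam1, which encodes TRIF (20.5 ± 1.70 and 20.1 ± 2.63, edgeR adjusted p = 0.892). Ticam2, the bridge between TLR4 and TRIF, fell 1.53-fold from 52.1 ± 1.47 to 33.9 ± 3.20 (edgeR adjusted p = 0.000139), with every MNP sample below every control. The interferon-pathway kinase gene Ikbke fell 1.51-fold and Map3k8, a kinase between NF-kB1 and ERK, 1.36-fold. Smaller falls were seen for Tasl, an adaptor of TLR7 to TLR9 that recruits IRF5 (1.29-fold), Syk (1.18-fold) and Pik3ap1 (1.13-fold). Tasl and Pik3ap1 lay near the threshold (edgeR adjusted p = 0.0456 and 0.0413), and the groups overlapped for Tasl. Ikbkg, the regulatory subunit of the IkB kinase, rose 1.38-fold and the kinase gene Irak1 1.23-fold. Without MNP sample 2, 2 of this list fell in place of 6.

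Transcription factors at the end of the pathways gave 2 higher and 4 lower of 15 tested (median -0.09). Over all tested genes, 9.11% were higher and 8.35% lower. Irf7 fell 3.46-fold from 29.97 ± 6.46 to 8.66 ± 0.789 scaled CPM and Irf1 2.05-fold from 66.4 ± 6.44 to 32.4 ± 2.52 (edgeR adjusted p = 1.55e-06 and 2.51e-06). The NF-kB subunit genes Relb and Nfkb1 fell 1.53-fold and 1.22-fold. Irf5, which acts after TLR7 to TLR9, rose 1.19-fold from 203 ± 12.7 to 243 ± 10.3, and Atf1 1.22-fold. Of the list, 0 rose without control 2, 1 rose without MNP sample 1, MNP sample 2 or MNP sample 3, and 3 rose without control 3.

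Of 25 tested inhibitors of signalling, 2 rose and 6 fell (median -0.07), where 9.11% of all tested genes rose and 8.35% fell. Trim30a fell 1.99-fold, Nfkbiz, an atypical IkB protein, 1.78-fold and Nfkbia, which encodes the main NF-kB inhibitor and is itself a target of NF-kB, 1.34-fold. Usp18 (2.76-fold), Lgals9 (1.65-fold) and Cyld (1.17-fold) completed the 6. Usp18, like Irf7 among the transcription factors, is also counted in the list of TRIF and interferon targets. The interleukin 33 receptor gene Il1rl1 rose 1.88-fold from 6.94 ± 1.16 to 13.1 ± 0.840 scaled CPM and the phosphatase gene Dusp1 1.29-fold. Without control 2, control 3 or MNP sample 3, 1 gene of the list rose, and without control 1, 3 rose.

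Among the lists, known targets of the receptors had the medians farthest from 0. Of 22 tested targets of MyD88 and NF-kB signalling, 11 fell and 0 rose, with a median log2 fold change of -0.58. Over all tested genes, 8.35% were called lower and 9.11% higher. Il1rn, an interleukin 1 antagonist, fell 2.16-fold, the costimulatory gene Cd86 2.41-fold, the adhesion gene Icam1 1.55-fold and the chemokine gene Ccl2 1.85-fold. The anti-inflammatory cytokine gene Il10 (3.13 ± 0.450 to 1.07 ± 0.170 scaled CPM) and the chemokine gene Cxcl2 (5.45 ± 1.58 to 2.11 ± 0.585) fell from low levels. Tnf, named after its value was seen, was 29.8 ± 3.68 and 27.3 ± 2.73 (edgeR adjusted p = 0.459). A further 8 genes of the list, such as Il6 and Il12b, were too low to be tested.

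Of 20 tested targets of TRIF and interferon signalling, 19 fell and 0 rose, with a median of -1.86. Again 8.35% of all tested genes were called lower and 9.11% higher. Among those with the smallest p were Gbp2 (6.16-fold lower), Ifit2 (5.26-fold), Ifi204 (3.66-fold), Ifit3 (5.78-fold) and Ifit1 (3.97-fold). Gbp2, Ifi204, Ifit1 and Ifit3 have close relatives in their gene families, and reads may have been split between the copies. These genes also answer to interferon from other sources, and Ifnb1 itself had too few counts to be tested. This list and the one before it hold genes that earlier analyses of the same libraries had shown to fall, so their counts are no independent evidence of a direction.

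**Figure D4:**
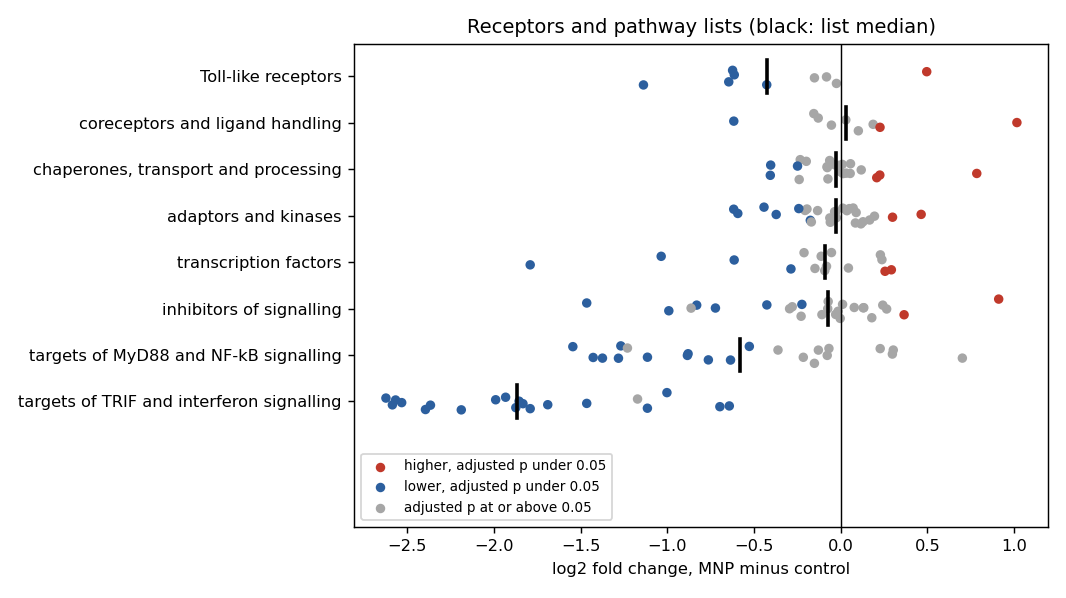
Log2 fold change of MNP minus control for each tested gene of the receptor family and of 7 pathway lists, with 1 point per gene (red higher, blue lower, grey not passing) and a black line at the list median. The medians of the coreceptor, chaperone, adaptor, transcription factor and inhibitor lists lie between -0.09 and 0.03, and those of the target lists at -0.58 and -1.86.

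The 5 genes whose log2 CPM followed Tlr2 most closely over the 6 libraries were Arhgap12, Pkib, Jak2, Abcg2 and N4bp2l1, with Pearson's r of 0.9985, 0.9966, 0.9960, 0.9939 and 0.9938. This is a description over 6 samples of which the 3 MNP samples are low for every one of these genes. Their falls were smaller than that of Tlr2, 1.17-fold for Arhgap12, 1.55-fold for Pkib, 1.21-fold for Jak2, 1.35-fold for Abcg2 and 1.55-fold for N4bp2l1.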

How the data were processed

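The authors deposited 1 file per library with whole-number counts per gene symbol, per the labels from total RNA prepared with the CORALL RNA-seq kit (V2). The submitters' processing notes name fastp, STAR, Salmon, GATK and GRCm39. The sources used here do not give the annotation, the strand setting or the use of molecular identifiers. From these counts, differences were fitted in edgeR 4.0.16 (R 4.3.3, TMM factors, default expression filter, quasi-likelihood F test, Benjamini-Hochberg adjustment over all tested genes, calls at adjusted p under 0.05). Pairs of replicates differed by a chi-square of 6.65 to 17.6 per degree of freedom, so none looked like a repeated library. Of these steps and the alternatives, only the edgeR, DESeq2 and limma-voom fits were tested on simulated data.

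The members and lists were chosen with earlier results of these data known. Named were all receptors, any coreceptor, chaperone or adaptor, up to 6 called genes per direction of each other list, and the 5 genes most like Tlr2 (log2 CPM, prior count 2). The rule also covered Tlr11 and Tlr12, and 1 gene it named and 1 of 6 motifs searched are not reported here. Lengths came from GENCODE M21 and promoters from RefSeq GRCm38.p6, matched by symbol. Ratios were compared with scipy 1.17.1. Alternatives were other scalings, filters and thresholds, a replicate block, DESeq2 1.42.0, limma-voom (limma 3.58.1), coding length and the omission of each library, which for the pathway lists was added after seeing the data.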

Additional observations from a re-analysis of the deposited data

How the results depend on the processing

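The 6 receptor calls, 5 lower and 1 higher, were kept in 14 alternatives to the fit and at an adjusted p under 0.01. Log2 fold changes ran from -1.23 to -1.02 for Tlr2 and from 0.41 to 0.55 for Tlr13. Tlr4 came nearest to a call with library totals alone (-0.17, edgeR adjusted p = 0.0513). The value of Tlr6 turned positive with no filter (0.0084) and ran from -0.049 to 0.018 when each library was left out. Over all genes, 1272 were called at an adjusted p under 0.01, and 1471 (without MNP sample 2) to 2245 when each library was left out, against 2250.

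With library totals alone, higher and lower calls were 1 and 3 for coreceptors, 1 and 6 for chaperones, 2 and 10 for adaptors, 0 and 7 for transcription factors and 1 and 11 for inhibitors. Under that scaling, all 12893 tested genes gave 757 higher and 1941 lower calls, with a median log2 fold change of -0.099. With each library left out, higher calls ran from 1 to 3 for coreceptors, 0 to 3 for transcription factors and 1 to 3 for inhibitors, and lower calls from 1 to 2 for coreceptors and 2 to 6 for adaptors. With coding length, 6 of 10 receptors kept their place in the order of control levels. Correlations of deviations between same-numbered samples were 0.087, 0.028 and -0.022. With 3 samples per group, these values cannot decide whether samples were paired. A replicate block gave 2686 calls over all genes, against 2250 without it, and the same 6 receptor calls. The cause of these differences was not tested. At this depth Tlr5 had 1 to 10 counts in a library and was not tested.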

Other observations

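The remaining mouse receptors of the family, Tlr11 and Tlr12, which bind protozoan profilin, were near the counting limit and were not tested. Tlr11 had 13, 6 and 5 counts in controls 1 to 3 and 1, 9 and 2 in MNP samples 1 to 3. Tlr12 had 11, 4 and 4 counts in controls and 1, 0 and 0 in MNP samples, at or under the limit of 3 counts in all MNP samples. Control 1, in which both were highest, was also the library with the most genes detected, 24062, and the part of this in the counts was not tested.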
